A study of Arabidopsis thaliana with 90 samples.

Results

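The genes described here are 150 Arabidopsis genes whose transcripts were raised after 1 h of red light (R) at 17 °C in aBcde, the line in which phyB is the only phytochrome left, and were back near the dark level after 24 h of R. They were chosen from their own read counts in that line: the log2 ratio to darkness, computed on mean CPM (counts scaled to the library total) with 1 added, had to reach 0.8 at 1 h and to lie within 0.5 of 0 at 24 h, and all 3 libraries of 1 h had to lie above all 3 dark libraries. Of 28496 nuclear genes, 353 passed these limits, and the 150 with the largest ratio at 1 h were taken. Because these values chose the genes, all values in aBcde at 17 °C, calls included, are given as a description. Tests are read as results only for the other lines and for 27 °C.

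The counts came from poly(A) RNA of 4-day-old seedlings grown in darkness at 17 °C or 27 °C and then kept dark or given R (50 µmol m−2 s−1) for 1 h or 24 h, in 5 lines with 3 replicate samples in each of 30 groups. All lines are in the Ler background and carry phytochrome mutations. In aBcde, phyA-201, phyC-1, phyD-1 and phyE-1 leave endogenous phyB, whereas abcde lacks all 5 phytochromes. PHYB-CFP/abcde expresses PHYB-CFP from the PHYB promoter, PHYD-YFP/abcde is a single selected line with strong 35S-driven PHYD-YFP, and PHYB-CFP, PHYD-YFP/abcde holds both transgenes. PHYD-YFP/abCde holds the same PHYD-YFP transgene, brought in by crossing, in a background where phyC is the only endogenous phytochrome. That the replicates came from separate plantings is not stated, so the p-values measure the spread between these samples.

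Phytochromes are red and far-red photoreceptors that move to the nucleus in their active form and change the expression of light-regulated genes, in large part through the PIF transcription factors. Early targets include genes of light signaling and of the circadian clock. Many Arabidopsis genes that respond quickly and briefly to touch, wounding, cold or pathogen elicitors encode WRKY, MYB, ERF and zinc finger transcription factors, calcium-binding proteins, receptor-like kinases and ubiquitin ligases.

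Library totals ran from 15010386 to 41124234 counts on genes. PIL1, a PIF target that R represses, read 62.1 to 117 CPM in dark libraries and 1.34 to 46.0 CPM at 1 h. The root markers did not go together: COBL9, a root hair marker, read 0 to 4.33 CPM, NRT2.1 0 to 4.49 CPM and PHT1;1 8.35 to 59.1 CPM. CRU3, a seed marker, varied widely, from 2.41 to 4593 CPM in dark libraries. Mean PHYD levels were 4137 to 34966 CPM in groups with PHYD-YFP, against 12.9 to 211 CPM in aBcde and 14.7 to 70.6 CPM in PHYB-CFP/abcde. Mean PHYB levels were 269 to 1574 CPM in groups with PHYB-CFP and 50.4 to 167 CPM in the others. PHYC levels, 27.4 to 54.8 CPM, did not separate the lines, so the transcript does not check phyC-1. Levels from here on are CPM on trimmed-mean-scaled library sizes unless stated.

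In aBcde at 17 °C the members had a median log2 ratio of 1.59 at 1 h in the fitted model, from 1.17 to 5.48, where the median over 20695 genes tested was 0.03. All 150 passed the filter on low counts in the whole series. A gene was called where the adjusted p was below 0.05 and the change was 2-fold or more. By this call 143 members were above dark and none below in this contrast, against 2.89% and 4.79% of all genes tested, and all 150 members and 24.5% of all genes had libraries of 1 h above every dark library. Both follow from the choice of the members. In RNA of whole seedlings, fewer cells of a type and less RNA per cell cannot be told apart. At 24 h the median was 0.06 and none was called, where 12% of all genes were called above and 6.4% below.

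The member with the largest ratio was AT2G24600, an ankyrin repeat protein, at 0.523, 0.184 and 0.351 CPM in darkness, 6.42, 5.61 and 5.28 CPM at 1 h, and 0.28, 0.0574 and 0.726 CPM at 24 h. MYB51, which activates indole glucosinolate synthesis, went from 13.3, 5.76 and 9.79 CPM to 56.7, 50.8 and 47.3 CPM and was at 7.55, 10.1 and 10.5 CPM at 24 h. WRKY18, a transcription factor of the pathogen response, went from 11, 14.3 and 13 CPM to 58.8, 57.7 and 52.4 CPM and was back at 13.1 to 19.5 CPM after 24 h. The others among the 12 largest were GSTU12, a glutathione transferase, XBAT34, an ankyrin repeat RING protein, CYP706A2, a cytochrome P450, AT4G18205, annotated as a nucleotide-sugar transporter, BCS1, AT5G28630, AT2G32030, and the uncharacterized AT5G44568 and AT2G18690. In each of these 12 the lowest library of 1 h lay above the highest of darkness, as the rule demands, and the log2 ratios of raw CPM with 1 added ran from 1.97 to 2.28. Just inside the limit of 150 stood AT5G20670 (1.08 at 1 h, −0.38 at 24 h) and AT1G63750 (1.07), and just outside it AT2G31110 (1.07) and PRA1.B5 (1.07).

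By the product named in the reference annotation, or by hand for ZAT6, XBAT34 and CMPG2, 24 members encode transcription factors: 7 WRKY, 5 MYB, 2 NAC and 10 of other families. A further 17 encode protein kinases, 13 transporters, 10 ubiquitin ligases or F-box proteins, 5 calcium or calmodulin proteins, 6 glutathione transferases, P450s or glycosyltransferases, 4 heavy-metal-binding proteins, 3 VQ motif proteins and 68 other products. The shares of these classes among all genes were not counted. The WRKY members had a median log2 ratio of 2.14 at 1 h in aBcde at 17 °C, the heavy-metal-binding members 2.63 and the kinases 1.44. In structure the members were short: 59 of 150 (39.3%) had a single exon, against 15.4% of 20402 tested genes with a gene model, and the median gene length was 1850.5 bases against 2372.5 bases. Of the members, 20 overlap another gene, among those described here WRKY53, WRKY40, MBF1C, CRK11, AT1G14200 and AT1G76360. Since the strand setting of the counting is not stated, reads of these and of the other gene at the locus cannot be told apart.

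Promoter windows of 250 bases before the gene start were searched on both strands for short motifs, as a description of what the members share beyond the rule. The W-box core bound by WRKY factors, TTGACC or TTGACT, was present in 65 of 150 member windows (43.3%) and in 28.3% of 20401 windows of tested genes, and 18 members (12%) against 6.03% held 2 or more. CGCGT, the core bound by calmodulin-binding CAMTA factors, was in 12.7% against 7.42%, and GCCGCC, the core bound by ERF factors, in 4% against 1.93%. The opposite held for TGGGCC, a motif of ribosomal and housekeeping promoters, with 4.67% against 16.2%, and for CACGTG, the G-box bound by PIF and HY5, with 4% against 7.45%. TATAAA was in 47.3% against 46.4%. Of the 65 members with a W-box core, 57 have a window that overlaps no other gene. The windows below, from RefSeq on TAIR10.1 and written 5′ to 3′ on the gene's strand, show the W-box cores in capitals for the member with the largest ratio, for the transcription factor WRKY53, for the receptor-like kinase CRK11 and for the light-signaling gene STO, and the CACGTG motifs in capitals for the clock gene PRR9.
AT2G24600 (chr2:10454594-10454843, minus strand): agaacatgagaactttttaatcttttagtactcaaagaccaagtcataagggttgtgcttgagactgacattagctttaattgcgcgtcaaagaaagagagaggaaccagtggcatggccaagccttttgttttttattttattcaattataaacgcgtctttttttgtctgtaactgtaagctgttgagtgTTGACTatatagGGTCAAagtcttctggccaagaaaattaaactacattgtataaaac
WRKY53 (chr4:12393983-12394232, minus strand): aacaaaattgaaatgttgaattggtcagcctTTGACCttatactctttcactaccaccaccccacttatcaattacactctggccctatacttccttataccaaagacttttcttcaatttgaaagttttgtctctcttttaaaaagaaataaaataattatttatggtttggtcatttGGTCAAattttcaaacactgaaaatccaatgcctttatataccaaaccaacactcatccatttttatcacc
CRK11 (chr4:12143859-12144108, minus strand): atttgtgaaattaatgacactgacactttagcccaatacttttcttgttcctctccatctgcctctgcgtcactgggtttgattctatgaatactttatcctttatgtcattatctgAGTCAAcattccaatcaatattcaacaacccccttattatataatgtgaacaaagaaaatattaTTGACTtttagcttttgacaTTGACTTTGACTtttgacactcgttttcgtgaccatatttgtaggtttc
STO (chr1:1829984-1830233, minus strand): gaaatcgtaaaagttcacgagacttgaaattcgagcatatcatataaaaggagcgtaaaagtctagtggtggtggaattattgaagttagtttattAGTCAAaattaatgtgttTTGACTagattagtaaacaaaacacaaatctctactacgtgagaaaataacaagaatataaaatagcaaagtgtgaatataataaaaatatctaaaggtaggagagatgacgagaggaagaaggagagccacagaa
PRR9 (chr2:19232357-19232606, plus strand): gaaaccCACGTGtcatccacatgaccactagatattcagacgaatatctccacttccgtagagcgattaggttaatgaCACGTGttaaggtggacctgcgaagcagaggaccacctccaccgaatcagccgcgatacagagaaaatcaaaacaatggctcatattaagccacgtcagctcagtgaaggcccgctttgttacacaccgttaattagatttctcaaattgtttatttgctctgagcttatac
AT2G24600, WRKY53 and STO held 2 W-box cores each and CRK11 held 4, while PRR9 held none and had 2 G-boxes. A match says only that these letters stand in the window.

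Followed into the other lines and to 27 °C, a small set of members rose at 1 h in most groups, and the majority passed the test in none. Over the 9 comparisons of 1 h R with darkness that the rule did not use, CDF3, MAPKKK14 and STO were called up in 6, namely those of the lines with phyB and that of PHYD-YFP/abCde at 17 °C, PRR9 in 5, ZAT6, ZFP6 and OPR1 in 4, and 94 of the 150 members in none. A further 33 were called in 1, 10 in 2 and 6 in 3. In single comparisons 0 to 21.3% of members were called up, against 0.00483 to 2.88% of all genes. How many of all genes were called in none of the 9 was not counted. No member was called lower than darkness in any of the 9.

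STO (BBX24, AT1G06040) encodes a B-box zinc finger protein of light signaling. In aBcde at 17 °C it read 111, 100 and 115 CPM in darkness and 294, 308 and 305 CPM at 1 h. At 27 °C the same line went from 114, 134 and 134 CPM to 366, 354 and 338 CPM, a log2 change of 1.47 ± 0.12 (SE, n = 3, adjusted p = 1.31e-15). The 3 libraries of each group lay close together and the dark and 1 h groups did not overlap.

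In PHYB-CFP/abcde STO rose from 107, 104 and 123 CPM to 361, 319 and 300 CPM at 17 °C and from 123, 122 and 116 CPM to 432, 425 and 415 CPM at 27 °C. The log2 changes were 1.55 ± 0.12 and 1.82 ± 0.12, and those of the line with both transgenes were 1.57 ± 0.12 and 1.72 ± 0.12. PHYD-YFP/abCde at 17 °C went from 89.2, 134 and 113 CPM to 248, 259 and 240 CPM, a change of 1.15 ± 0.12 (adjusted p = 4.87e-11), and all 3 libraries of 1 h were alike. At 27 °C this line reached 218, 227 and 234 CPM from 137, 120 and 134 CPM, a change of 0.80 (adjusted p = 5.88e-06) that stayed under 2-fold. Without phyC, in PHYD-YFP/abcde, STO read 137, 137 and 157 CPM at 17 °C against 110, 103 and 90.7 CPM in darkness (0.50, adjusted p = 0.062) and 149, 152 and 162 CPM against 126, 139 and 122 CPM at 27 °C (0.26, adjusted p = 0.421). In those 2 comparisons the change was not called.

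CDF3 (AT3G47500), a DOF transcription factor whose family is tied to the clock, was called in the same comparisons as STO. In PHYD-YFP/abCde at 17 °C it went from 10.3, 8.67 and 12.2 CPM to 27.9, 37.3 and 47.2 CPM, a log2 change of 1.85 ± 0.17 (adjusted p = 3.68e-13), and at 27 °C from 26, 20.7 and 17.3 CPM to 33, 35.3 and 33.6 CPM (0.67, adjusted p = 0.0292, under 2-fold). The lines with phyB gave log2 changes of 1.47 to 1.80 in the 5 comparisons not used by the rule. Without phyC, in PHYD-YFP/abcde, it read 15.5, 12 and 12.9 CPM at 17 °C against 11.8, 10.3 and 13 CPM in darkness (0.20, adjusted p = 0.933). MAPKKK14 (AT2G30040), a MAP kinase kinase kinase, rose from 18.6, 22.3 and 18.1 CPM to 74.1, 75.3 and 74.4 CPM in the line with both transgenes at 27 °C (1.92 ± 0.18, adjusted p = 1.07e-13). It was called in the same 6 comparisons, with the smallest changes in PHYD-YFP/abCde at 17 °C (1.27 ± 0.18) and in aBcde at 27 °C (1.28 ± 0.17).

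**Figure D1:**
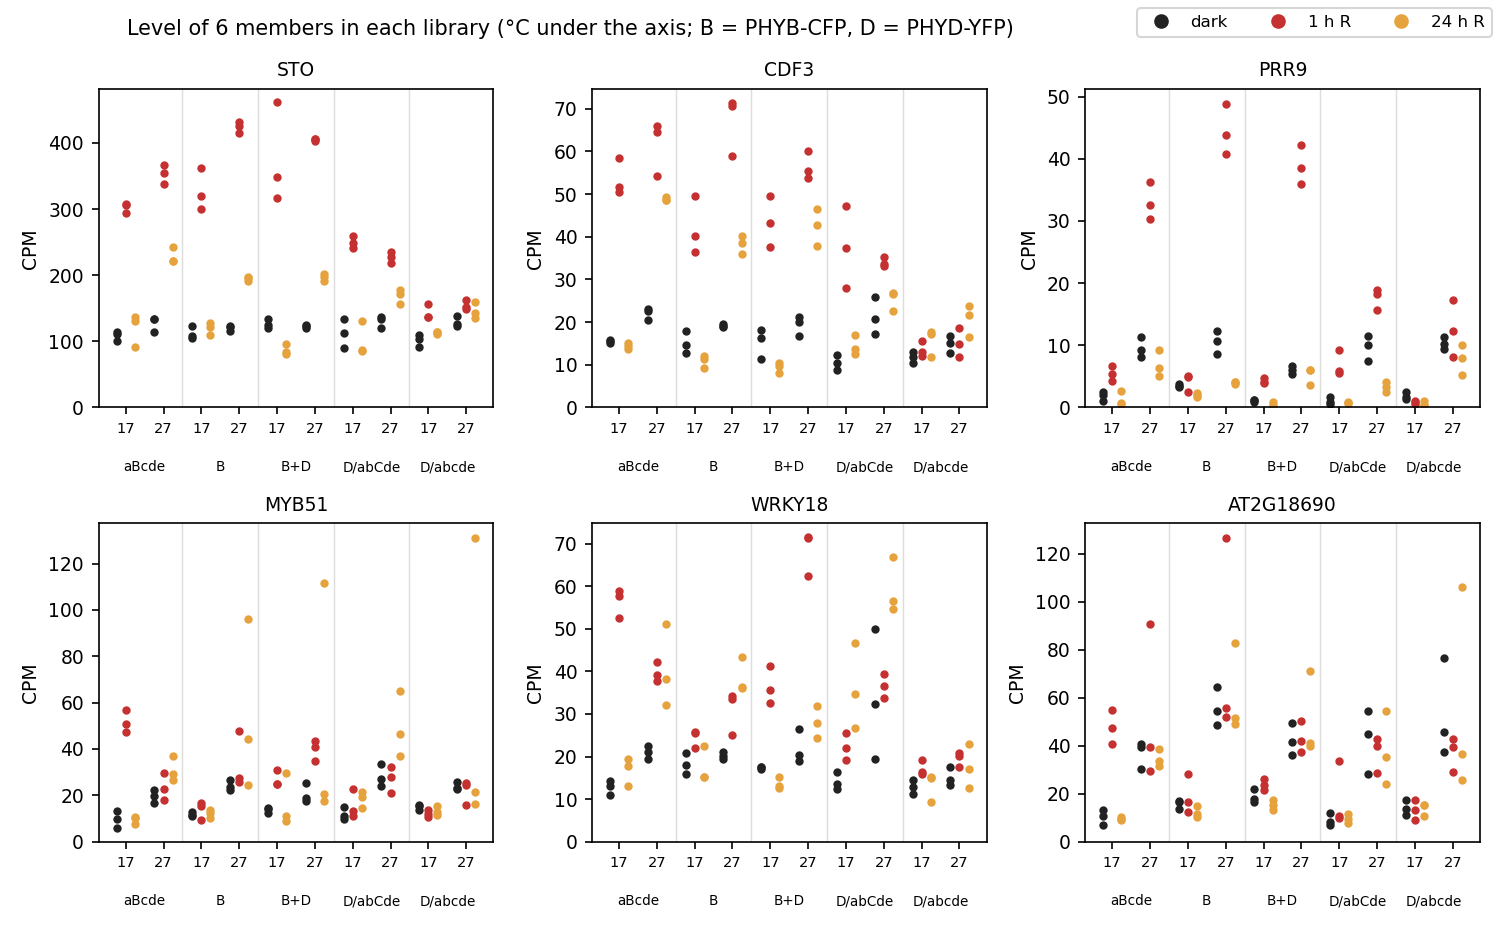
CPM per library (y axes) for STO, CDF3, PRR9, MYB51, WRKY18 and AT2G18690 in each line and temperature, in darkness, at 1 h and at 24 h of R, where B and D stand for the PHYB-CFP and PHYD-YFP transgenes and each point is 1 library. STO reached 240 to 259 CPM in all 3 libraries of PHYD-YFP/abCde at 1 h and 17 °C, whereas AT2G18690 read 10, 10.9 and 33.5 CPM in the same libraries.

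PRR9 (AT2G46790), a pseudo-response regulator that represses morning clock genes, differed in its response with temperature and line. In PHYB-CFP/abcde it read 3.78, 3.3 and 3.39 CPM in darkness and 4.99, 4.88 and 2.48 CPM at 1 h at 17 °C, where the groups overlapped (0.23 ± 0.34, adjusted p = 1). At 27 °C it rose from 10.7, 12.3 and 8.57 CPM to 43.9, 40.7 and 48.8 CPM (2.08 ± 0.32, adjusted p = 1.17e-06). This was the single member whose response in PHYB-CFP/abcde differed between 27 °C and 17 °C, by 1.84 ± 0.46 on the log2 scale (adjusted p = 0.0431; 0.13% of all genes were called higher and 0.135% lower), and it was not called when any of the 3 replicates was left out. In aBcde at 27 °C PRR9 went from 9.19, 11.3 and 8.06 CPM to 32.6, 30.3 and 36.3 CPM (1.79 ± 0.32, adjusted p = 3.9e-05). In PHYD-YFP/abCde at 17 °C it went from 0.47, 0.837 and 1.6 CPM to 5.91, 5.57 and 9.31 CPM (2.84 ± 0.38, adjusted p = 2.41e-07), while in PHYD-YFP/abcde it read 1.62, 2.46 and 1.35 CPM in darkness and 0.505, 0.876 and 1.02 CPM at 1 h (−1.17 ± 0.43, adjusted p = 0.657).

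OPR1 (AT1G76680), an oxophytodienoate reductase-like enzyme, was raised at 1 h at 27 °C in 4 lines and was called at 17 °C in none of the 4 lines tested. At 27 °C it went from 6.92, 8.01 and 8.52 CPM to 82, 78.1 and 67.1 CPM in aBcde (3.28 ± 0.43, adjusted p = 4.1e-08), and from 16.6, 17.9 and 14.3 CPM to 322, 411 and 251 CPM in the line with both transgenes (4.33 ± 0.44, adjusted p = 2.96e-12). It was also the single member called in PHYD-YFP/abcde at 27 °C, from 12.8, 12 and 9.45 CPM to 62.4, 31.2 and 58.6 CPM (2.15 ± 0.41, adjusted p = 0.00226), where 0.28% of all genes were called up and where the call was lost without replicate 3 and kept without replicate 1 or 2. OCT5 (AT1G79410), a carnitine transporter family member, rose at 27 °C in aBcde from 3.49, 3.92 and 2.84 CPM to 15.6, 18.6 and 22.1 CPM (2.45 ± 0.28, adjusted p = 5.06e-10), and in the 2 other lines with phyB by 1.31 and 2.07. For both genes the dark level was lower at 27 °C than at 17 °C in aBcde, where OPR1 read 51.4, 51.4 and 36.4 CPM and OCT5 read 11.6, 11.6 and 10.5 CPM at 17 °C.

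Counted over all members, the lines with phyB and the line with phyC and PHYD-YFP at 17 °C showed more calls than the background. In aBcde at 27 °C, 15 of 150 members (10%) rose at 1 h, against 1.01% of all genes, with a median log2 change of 0.55, and none fell (background 0.763%). In PHYB-CFP/abcde 4 members rose at 17 °C (background 0.237%, median 0.29) and 19 at 27 °C (background 1.56%, median 0.58), and none fell (background 0.126% and 0.797%). In the line with both transgenes 6 rose at 17 °C (background 0.333%, median 0.47) and 32 at 27 °C (background 2.88%, median 0.69), and none fell (background 0.251% and 0.744%). In PHYD-YFP/abCde 29 rose at 17 °C (background 1.02%, median 0.82) and none fell (background 0.353%).

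At 27 °C in PHYD-YFP/abCde none of the 150 was called by edgeR or by DESeq2 (background 0.0676% up and 0.0966% down). At an unadjusted p under 0.05, 9 were higher and 4 lower, beside 1085 of all 20695 genes in either direction, and the median was 0.01. Without phyC, PHYD-YFP/abcde at 17 °C had none called by either tool (background 0.00483% up and 0.029% down), and the median was −0.02. There 2 were higher and 2 lower at an unadjusted p under 0.05, beside 1212 of all 20695 genes in either direction. In the same line at 27 °C the median was 0.00, with OPR1 alone called up and none down (background 0.0387% down). The medians of these 3 groups thus lay near 0.

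**Figure D2:**
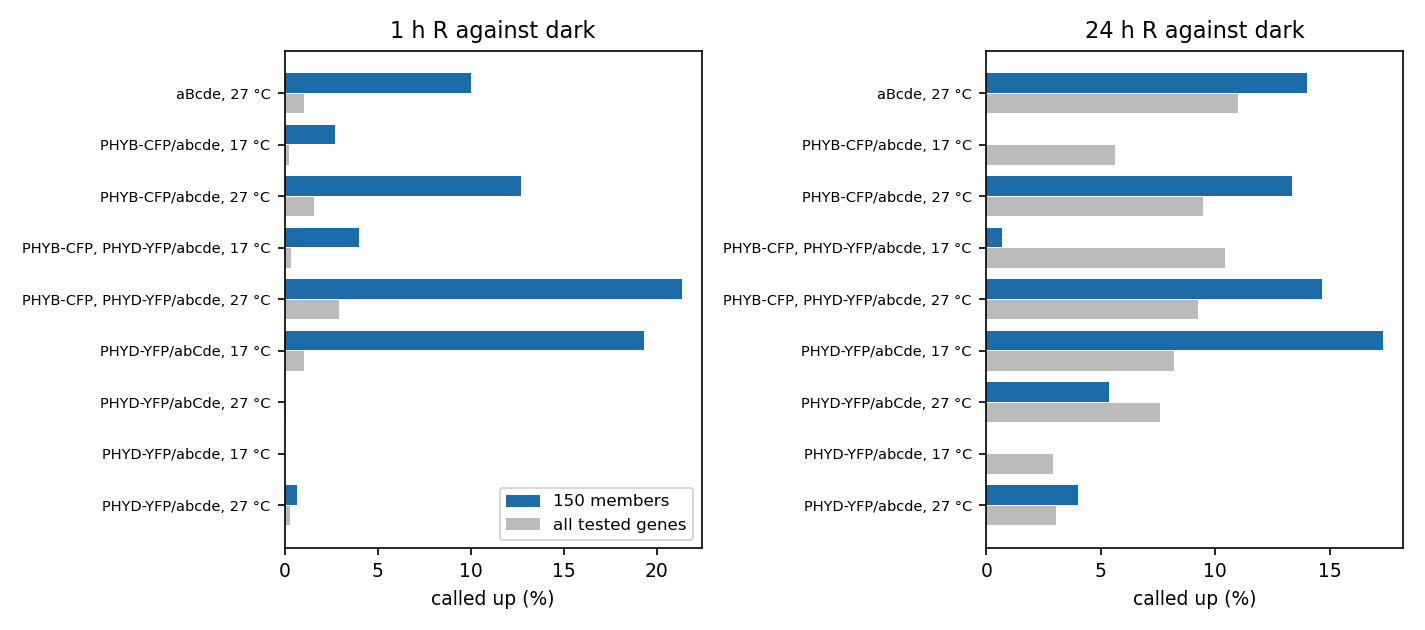
Percent of genes called above darkness (x axis) among the 150 members and among all genes tested, for the 9 comparisons of 1 h R and the matching comparisons of 24 h R that the rule did not use. At 1 h the members' share was 10% in aBcde at 27 °C, where the background was 1.01%, and 0% in PHYD-YFP/abCde at 27 °C, where the background was 0.0676%.

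Many changes below 2-fold were shared by all 3 libraries. In aBcde at 27 °C the libraries of 1 h lay wholly above darkness for 59 members and wholly below it for 1, where 10.2% and 10.1% of all genes did so. In PHYB-CFP/abcde 23 members lay wholly above and none below at 17 °C (5.69% and 5.24% of all genes), and 81 and 2 at 27 °C (12.6% and 13.2%). The line with both transgenes had 65 above and 2 below at 17 °C (7.44% and 7.18%), and 90 and 5 at 27 °C (16.4% and 14.5%). For PHYD-YFP/abCde the counts were 53 and 1 at 17 °C (6.7% and 6%), and 17 and 5 at 27 °C (6.12% and 5.76%). Those of PHYD-YFP/abcde were 8 and 3 at 17 °C (5.58% and 4.69%), and 13 and 9 at 27 °C (7.84% and 7.6%).

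**Figure D3:**
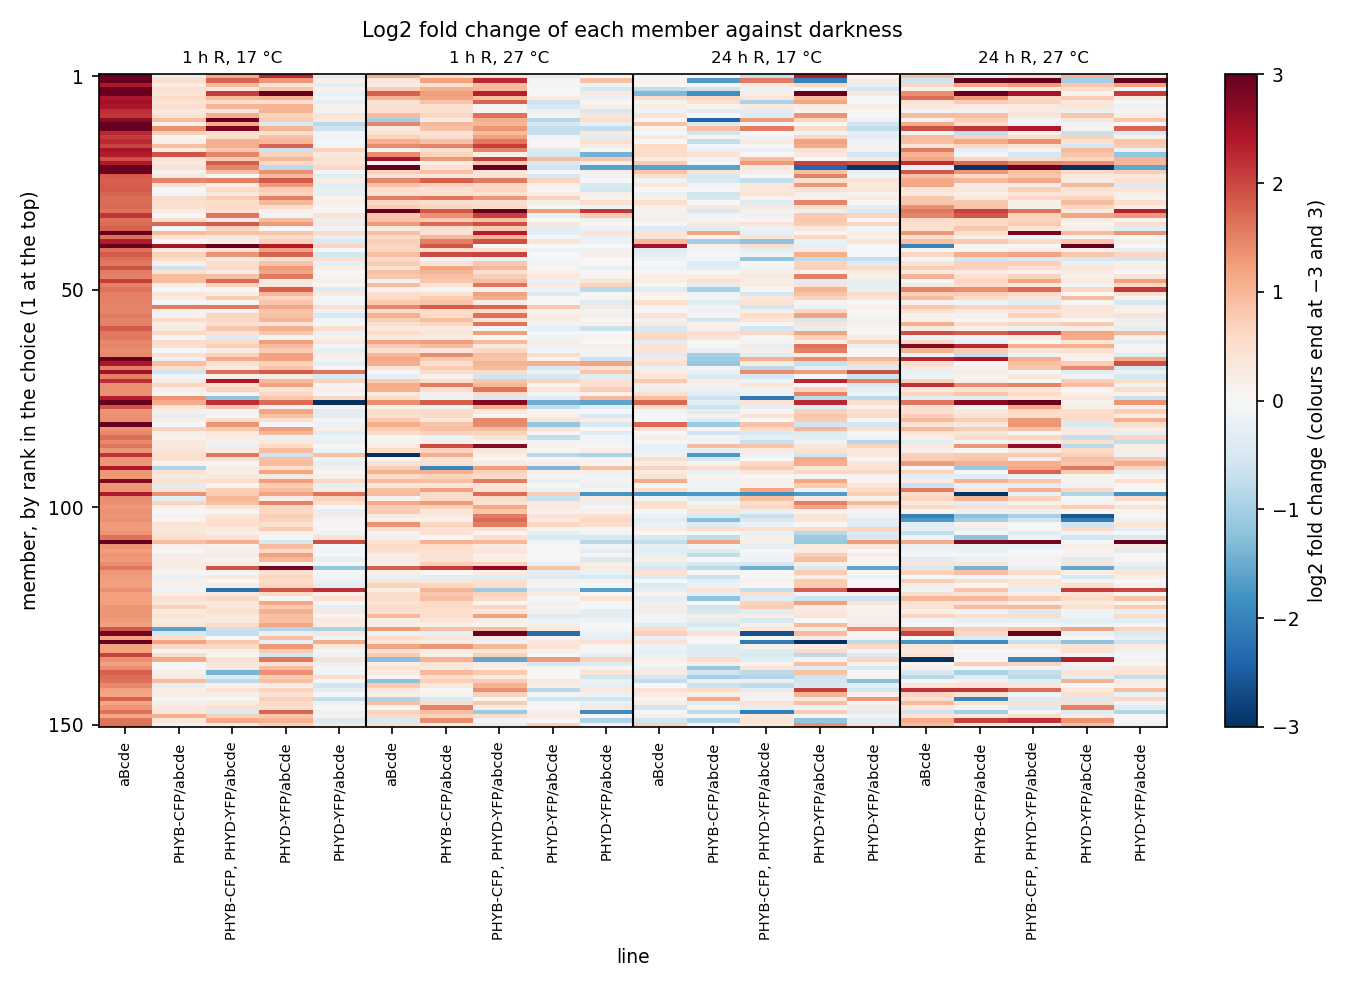
Fitted log2 change against darkness for the 150 members (rows, by rank of the log2 ratio in aBcde at 17 °C and 1 h) in 20 comparisons of lines, temperatures and times (columns), with colors limited to 3 on either side of 0. The column of aBcde at 17 °C and 1 h has a median of 1.59 by the choice of the members, and the columns of PHYD-YFP/abcde at 1 h have medians of −0.02 and 0.00.

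The members did not move evenly over replicate libraries, and this touches several of the counts above. The median over the members of the log2 difference from the dark mean was 0.245, 0.260 and 1.24 in the 3 libraries of PHYD-YFP/abCde at 17 °C and 1 h. It was 0.241, 0.177 and 0.920 in aBcde at 27 °C and 0.284, 0.297 and 0.869 in PHYB-CFP/abcde at 27 °C. In all 3 groups the library of replicate 3 stood high, while in aBcde at 17 °C the values were 1.46, 1.31 and 1.35, and in the line with both transgenes at 17 °C 0.394, 0.393 and 0.385.

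**Figure D4:**
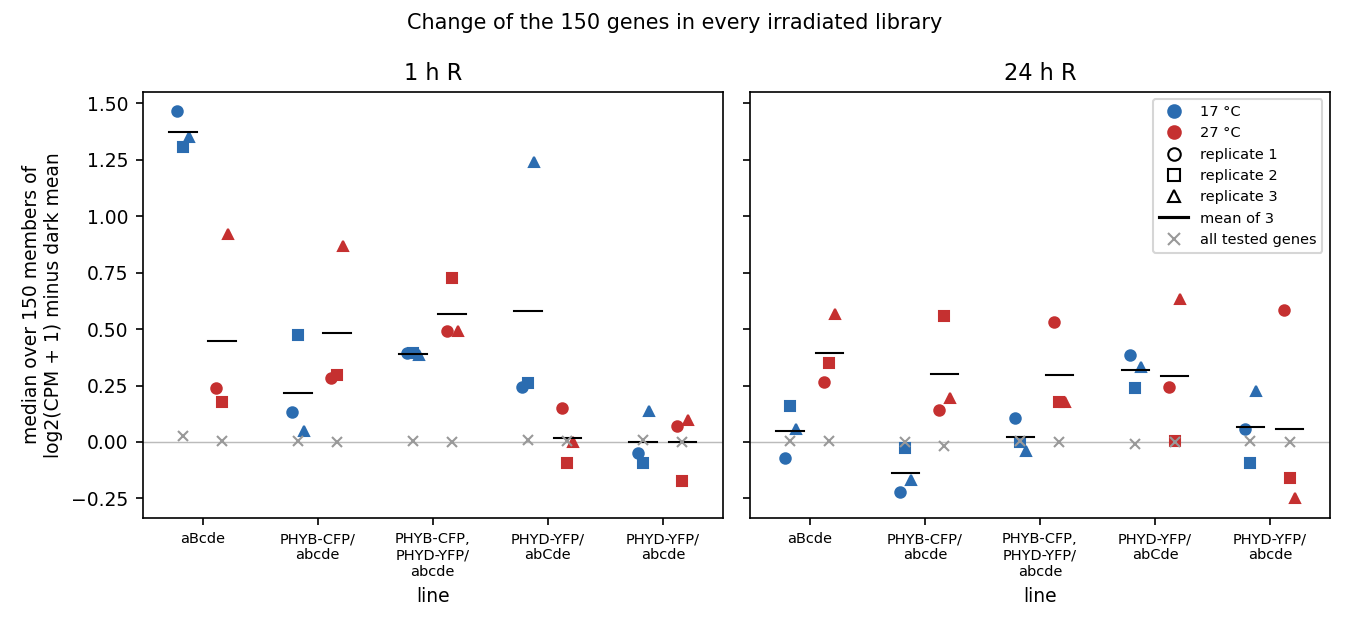
Median over the 150 members of the log2 difference from the dark mean (y axis) in each library, by line and temperature, at 1 h of R on the left and 24 h on the right, where points are libraries, bars the mean of 3 libraries and crosses the median of all genes tested. At 1 h replicate 3 of PHYD-YFP/abCde at 17 °C stood at 1.24 and its other libraries at 0.245 and 0.260.

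The same libraries stood apart in photosynthesis genes and in the share of counts on organelle genes. RBCS1A, a small subunit of Rubisco, read 8126, 8644 and 1259 CPM at 1 h in PHYD-YFP/abCde at 17 °C, with dark libraries at 6914 to 7590 CPM. In aBcde at 27 °C it read 861, 1102 and 291 CPM (dark 561 to 745 CPM), and in PHYB-CFP/abcde at 27 °C 1249, 1164 and 502 CPM (dark 703 to 931 CPM). In aBcde at 17 °C all 3 libraries of 1 h were low, at 1577, 2036 and 1972 CPM against 4974 to 5217 CPM in darkness. The low RBCS1A libraries were thus the ones with high members. Organelle genes took 0.421, 0.702 and 0.132% of counts in the 3 libraries of PHYD-YFP/abCde at 17 °C and 1 h. They took 0.853, 0.799 and 0.239% in aBcde at 27 °C and 2.66, 3.08 and 1.00% in PHYB-CFP/abcde at 27 °C. The share of tRNA and rRNA genes was also lowest in replicate 3 of these groups. In PHYB-CFP/abcde at 17 °C replicate 3 had the lowest organelle share (1.76, 2.43 and 0.580%) but the lowest members.

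Over 20 genes of the photosynthetic antenna, the median log2 difference from darkness was 0.11, 0.38 and −1.98 in the 3 libraries of PHYD-YFP/abCde at 17 °C, and −1.55, −1.19 and −1.54 in aBcde at 17 °C. PORA, the protochlorophyllide reductase of dark-grown seedlings, differed by −0.19, −0.38 and −2.96 in the former and by −2.57, −1.74 and −1.88 in the latter. The library with the highest members was the one with the lowest RBCS1A in 8 of 10 groups at 1 h and in 5 of 10 at 24 h, and some of these orders rest on small gaps, such as 0.025 in the members' median of PHYD-YFP/abcde at 27 °C and 1 h. PIL1 was also lowest in replicate 3 of PHYD-YFP/abCde at 17 °C, at −3.65 against −3.35 and −3.05, and the median of STO and CDF3 was highest there, at 1.60 against 1.26 and 1.49. In replicate 3 of aBcde at 27 °C PIL1 was lowest too, at −4.80 against −4.02 and −4.31, while the median of STO and CDF3 was lowest, at 1.33 against 1.53 and 1.49. What part the difference between these libraries has in the members' levels was not tested.

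**Figure D5:**
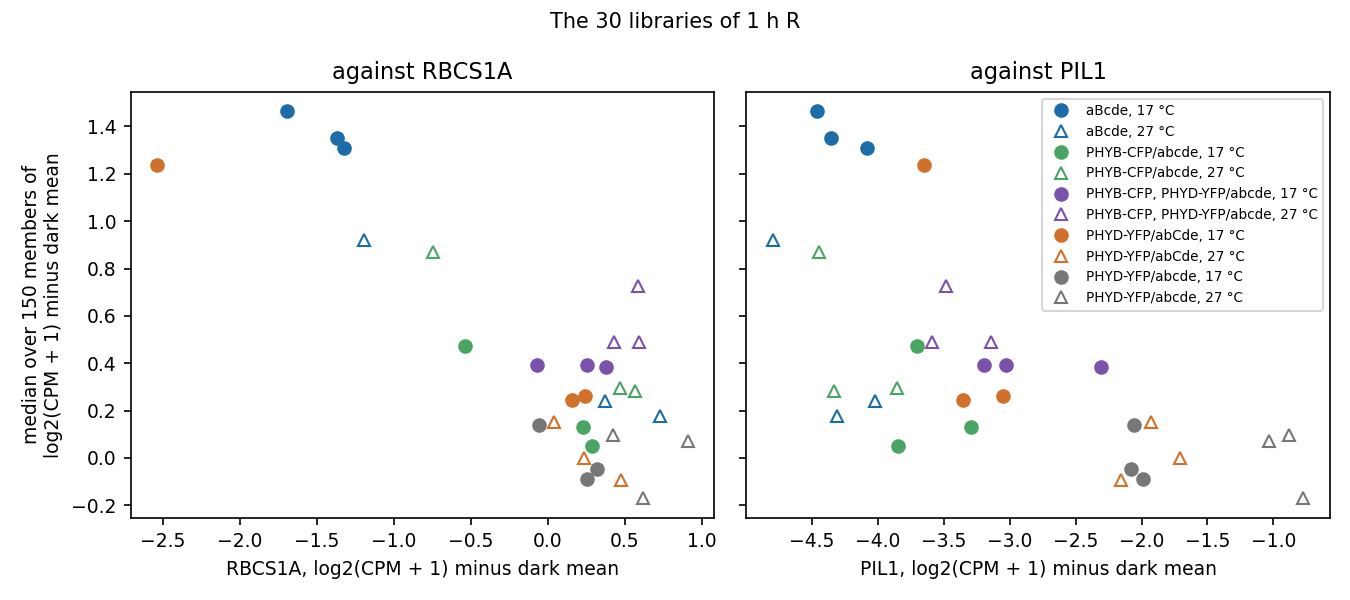
Each of the 30 libraries of 1 h R by the median log2 difference of the members from darkness (y axis) and by the log2 difference of RBCS1A (left x axis) or PIL1 (right x axis) from the dark mean of its group. Replicate 3 of PHYD-YFP/abCde at 17 °C lies at −2.53 for RBCS1A and 1.24 for the members, beside the 3 libraries of aBcde at 17 °C with 1.31 to 1.46 for the members (RBCS1A −1.69, −1.32 and −1.37).

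Without replicate 3 of PHYD-YFP/abCde at 17 °C and 1 h, 3 members were called there instead of 29, and the median fell to 0.28 from 0.82. The 3 were CDF3 (1.65, adjusted p = 1.59e-10), STO (1.18, adjusted p = 4.59e-10) and PRR9 (2.57, adjusted p = 1.58e-05). In a fit to these 2 groups alone, edgeR called 0 members, with 49 higher at an unadjusted p under 0.05, and DESeq2 over all libraries called 31. MYBL2 (AT1G71030), a MYB repressor of anthocyanin synthesis, was also highest in replicate 3 and read 80, 94.2 and 226 CPM at 1 h against 50.8, 39.4 and 45.5 CPM in darkness (1.56 ± 0.19, adjusted p = 1.69e-08). Each of these libraries lay above every dark library. AT2G18690, at 10, 10.9 and 33.5 CPM against 8.09, 6.94 and 11.9 CPM, did not pass the test (1.01, adjusted p = 0.0982).

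Without the replicate 3 libraries of all groups, 11 members were called in aBcde at 27 °C (median 0.24) and 13 in PHYB-CFP/abcde at 27 °C (median 0.34). The calls that held whichever replicate number was left out were 9 of 15 in aBcde at 27 °C, 4 of 4 and 11 of 19 in PHYB-CFP/abcde at 17 °C and 27 °C, 3 of 6 and 21 of 32 in the line with both transgenes, and 4 of 29 in PHYD-YFP/abCde at 17 °C. CDF3 and STO were among them in each of these 6 comparisons. MAPKKK14 was among them in 5 and PRR9 in 4.

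Differences between the responses of 2 groups were tested for 6 pairs that leave out the rule's contrast, and other pairs, among them all with the line with both transgenes at 27 °C, were not compared. In PHYD-YFP/abCde the response to 1 h of R was smaller at 27 °C than at 17 °C for CDF3 (−1.18 ± 0.23, adjusted p = 0.0078) and MYBL2 (−1.23 ± 0.27, adjusted p = 0.0189), where 0.0725% of all genes were called lower and 0.0532% higher. The members' median difference was −0.84, and 60 were lower and 1 higher at an unadjusted p under 0.05. Of all 20695 genes, 2584 passed that limit in either direction. Without replicate 3 of 1 h at 17 °C no member was called, with 15 lower at an unadjusted p under 0.05, and the median difference was −0.28. Both calls were also lost without the replicate 2 libraries of all groups.

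At 17 °C the response of PHYD-YFP/abCde exceeded that of PHYD-YFP/abcde, the same transgene without phyC, for 6 members (background 0.319%). They were PRR9 (4.01 ± 0.58, adjusted p = 9.94e-06), CDF3 (1.65 ± 0.24, adjusted p = 9.94e-06), MYBL2 (1.48 ± 0.27, adjusted p = 0.00105), the zinc finger factor ZAT6 (1.87 ± 0.47, adjusted p = 0.0386), the kinase AT1G76360 (1.65 ± 0.39, adjusted p = 0.0238) and AT1G72430 (1.12 ± 0.29, adjusted p = 0.0458). Without replicate 3 of PHYD-YFP/abCde at 1 h, CDF3 (1.45, adjusted p = 0.000404) and PRR9 (3.74, adjusted p = 0.000136) passed. For these 2 genes all 3 libraries of 1 h in PHYD-YFP/abCde lay above its dark libraries. Fits to the groups compared alone called none for this difference (38 higher at an unadjusted p under 0.05) nor for that between temperatures (31 lower), whereas DESeq2 called 13 and 8.

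In the 2 differences tested between lines with phyB no member was called. PHYB-CFP/abcde minus aBcde at 27 °C had a median of 0.02 over the members, with 3 higher and 4 lower at an unadjusted p under 0.05. The line with both transgenes minus PHYB-CFP/abcde at 17 °C had a median of 0.14, with 8 higher and 1 lower. Of all 20695 genes, 558 and 842 passed that limit in these 2 differences, in either direction. Neither edgeR nor DESeq2 called a member in these 2 comparisons, and edgeR called no gene of the whole table (background 0%). For PHYD-YFP/abCde minus aBcde at 27 °C edgeR called none (background 0.0435% lower) and DESeq2 called 1 lower. The median was −0.58, and 34 members were lower and none higher at an unadjusted p under 0.05, beside 1235 of all genes in either direction.

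Of the 10 members on the list of rapid stress transcription factors, ZAT6 was called at 1 h in 4 of the 9 comparisons outside aBcde at 17 °C, WRKY18 in 2, WRKY40 and WRKY48 in 1 each, and 6 in none, beside 94 of all 150 members called in none. MYB51 read 22.4, 16.6 and 19.8 CPM in darkness and 22.8, 17.9 and 29.4 CPM at 1 h in aBcde at 27 °C (0.25 ± 0.44, adjusted p = 0.876), and MYB51 was called at 1 h in none of the 9 comparisons. WRKY18 rose in the line with both transgenes, from dark libraries at 17.1 CPM or slightly more to 35.7, 32.5 and 41.2 CPM at 17 °C (1.07 ± 0.20, adjusted p = 0.000315) and from 20.5, 19 and 26.4 CPM to 62.3, 71.3 and 71.7 CPM at 27 °C (1.64 ± 0.20, adjusted p = 1.32e-09). All its libraries of 1 h lay above darkness there, and also in aBcde at 27 °C, at 37.7, 42.3 and 39.2 CPM against 21.1, 22.4 and 19.5 CPM, where the change was under 2-fold (0.92, adjusted p = 0.00114).

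WRKY40 rose at 1 h in the line with both transgenes at 27 °C, from 10.4, 10.9 and 9.47 CPM to 26.5, 26.9 and 26.3 CPM (1.37, adjusted p = 0.000746). AT3G22910, an ATPase on the calcium-signaling list, rose there from 5.87, 6.98 and 4.65 CPM to 18.4, 25.4 and 21.7 CPM (1.91, adjusted p = 0.0018) and was also called up in PHYB-CFP/abcde at 27 °C (adjusted p = 0.043). WRKY46, WRKY8, WRKY53, MYB15, the ethylene response factor ERF13, the jasmonate repressor JAZ1 and the calmodulin-like CML42 were called at 1 h in none of the 9 comparisons. MYB15 was close to the detection limit in darkness in aBcde at 17 °C, at 0, 0.123 and 0 CPM, and read 1.25, 1.73 and 1.57 CPM at 1 h, so no fold is given. JAZ1 read 26.2, 16.9 and 24.5 CPM in darkness and 63.6, 50 and 44.1 CPM at 1 h in that group, and 37, 44 and 37.4 CPM against 34.5, 36.3 and 62.3 CPM in aBcde at 27 °C (0.17, adjusted p = 0.862). In the latter, replicate 3 alone lay above darkness. WRKY48 was called in PHYD-YFP/abCde at 17 °C alone, at 7.15, 9.61 and 21.7 CPM against 6.01, 6.2 and 4.14 CPM (1.22, adjusted p = 0.0039), and the ubiquitin ligase RHA1B there at 105, 102 and 232 CPM against 86.5, 52.6 and 56.2 CPM (1.17, adjusted p = 4.67e-07). In both, replicate 3 was the high library.

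ZAT6 (AT5G04340), a C2H2 zinc finger factor of phosphate and stress responses, rose from 16.5, 17.1 and 19.4 CPM to 43.4, 41.9 and 56.4 CPM in aBcde at 27 °C (1.42, adjusted p = 0.00163) and from 16.2, 16.5 and 15.3 CPM to 64.2, 76.7 and 62.5 CPM in the line with both transgenes at 27 °C (2.08, adjusted p = 8.08e-07). It also rose in PHYB-CFP/abcde at 27 °C (1.49, adjusted p = 0.00058) and in PHYD-YFP/abCde at 17 °C (1.76, adjusted p = 0.000272). The groups of darkness and 1 h did not overlap in aBcde at 27 °C nor in the line with both transgenes at 27 °C.

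The other genes of the same pathways, taken from lists that leave the members out, moved as follows. The lists were chosen with earlier results of these data known. Their counts in aBcde at 17 °C and 1 h come from the contrast that chose the members and are a description only. Of all genes, 2.89% were called up in aBcde at 17 °C and 1.01% at 27 °C, 1.02% (17 °C) and 0.0676% (27 °C) in the line with PHYD-YFP and phyC, 0.237% and 1.56% in PHYB-CFP/abcde, and 2.88% in the line with both transgenes at 27 °C. Called down were 4.79% in aBcde at 17 °C, 0.763% in aBcde at 27 °C and 0.353% in PHYD-YFP/abCde at 17 °C. Of 38 other rapid stress transcription factors, 15 were called up and none down at 1 h in aBcde at 17 °C (median 0.90), 1 up and 1 down at 27 °C (0.33), 2 up in PHYD-YFP/abCde at 17 °C (0.48) and 6 up in the line with both transgenes at 27 °C (0.63). Of 25 other clock genes, 7 rose in aBcde at 17 °C (0.30), 8 at 27 °C (0.38), 5 in PHYB-CFP/abcde at 17 °C and 9 at 27 °C, while PHYD-YFP/abCde had 6 up at 17 °C (0.54) and 1 at 27 °C (0.15). No clock gene fell. Of 44 other light-signaling genes, 11 rose and 7 fell in aBcde at 17 °C, 11 rose and 4 fell at 27 °C, and 6 rose and 2 fell in PHYD-YFP/abCde at 17 °C. No clock gene was called in PHYD-YFP/abcde, and 2 light-signaling genes rose at 27 °C (0.28% of all genes called up).

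Of 16 other calcium-signaling genes 6 rose in aBcde at 17 °C (0.75) and none at 27 °C, of 27 other jasmonate genes 3 rose at 17 °C (0.51) and none at 27 °C, and of 14 other ubiquitin genes 5 rose at 17 °C (0.45) and 2 fell at 27 °C (background 0.763% down). Of the 10 groups of 1 h, the calcium, stress and jasmonate lists had their largest counts of calls in the one in which the members were chosen, which also had the largest share of all genes called up (2.89%). The photosynthetic antenna list, which holds no member, had 17 of 20 genes called lower in aBcde at 17 °C (median −1.46, background 4.79%), 1 lower in aBcde at 27 °C (0.04) and none in PHYD-YFP/abCde at 17 °C (−0.15). The lists of auxin, cytokinin, ethylene, gibberellin and brassinosteroid, ribosome, flavonoid and cell wall genes hold no member either.

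The member MBF1C (AT3G24500), a transcriptional coactivator of the heat response, had a dark level of 6.96, 11.3 and 7.53 CPM at 17 °C and 148, 157 and 148 CPM at 27 °C in aBcde. At 1 h it was raised in the line with both transgenes at 27 °C, from 66.5, 73.6 and 64.6 CPM to 204, 251 and 204 CPM (1.69 ± 0.26, adjusted p = 5.88e-07), and AT1G14200, a RING protein, rose there from 30.1, 36.6 and 35.5 CPM to 86.4, 106 and 103 CPM (1.53 ± 0.30, adjusted p = 0.000144). In that group 17 of 21 heat-shock genes outside the members were called up (background 2.88%), with a median of 1.63, and the 3 libraries had median differences of 1.58, 1.90 and 1.48 over the list. In aBcde at 27 °C, where MBF1C read 181, 192 and 126 CPM at 1 h (0.14, adjusted p = 0.879), 3 of the 21 rose (background 1.01%).

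Before any light, the members tended to be higher at 27 °C than at 17 °C. The median difference of their dark means was 0.32 on the log2 scale in aBcde, where 106 of 150 were higher at 27 °C and where the dark libraries of 17 °C entered the choice of the members, 0.33 in PHYB-CFP/abcde (103), 0.23 in the line with both transgenes (97), 0.71 in PHYD-YFP/abCde (113) and 0.32 in PHYD-YFP/abcde (101). The median over all genes lay between −0.0004 and 0.022. At 27 °C replicate 3 of the dark group of PHYD-YFP/abCde was high for several members, with WRKY40 at 77.6 CPM where replicate 1 read 17.3 CPM, JAZ1 at 34.7, 54.2 and 109 CPM and ERF13 at 0.427, 0.336 and 6.95 CPM. Without the replicate 3 libraries this line still had no member called at 1 h and 27 °C, with 13 higher at an unadjusted p under 0.05, and a median of 0.12. At 1 h the members were lower at 27 °C than at 17 °C in aBcde, by a median of −0.61, and higher in the other lines, by 0.15 to 0.54. The members were chosen for a high 1 h to dark ratio at 17 °C in aBcde, so the difference in that line draws on values used in the choice. What part the choice has in its sign was not tested.

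A return to the dark level by 24 h was not seen for every member that rose. At 24 h in aBcde at 27 °C 21 members were called above darkness and 3 below it, where 11% of all genes were called above and 3.45% below, so the share above (14%) was near the background. Of the 15 called at 1 h in that group, 4 were also called up at 24 h and 11 were not called, and 17 members were called at 24 h alone. In the line with both transgenes at 27 °C 24 of the 32 raised at 1 h were not called at 24 h, and 8 were still up (9.23% of all genes were called up there). For PHYD-YFP/abCde at 17 °C the matching numbers were 22 and 7 of 29 (8.18% of all genes up). At 17 °C none of the 4 members raised at 1 h in PHYB-CFP/abcde was called up at 24 h (5.6% of all genes up). The same held for none of the 6 in the line with both transgenes (10.4% of all genes up). Counts of none among so few members are near these shares. How many of all genes raised at 1 h stayed up was not counted.

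STO and CDF3 stood higher at 24 h at 27 °C than at 17 °C in aBcde, a difference that was not tested. CDF3 was at 14.4, 13.6 and 15.1 CPM after 24 h at 17 °C, its dark level, and at 48.6, 49.2 and 48.6 CPM after 24 h at 27 °C against 22.7, 23.1 and 20.5 CPM in darkness (1.14 ± 0.16, adjusted p = 2.65e-08). In the line with both transgenes it read 7.98, 9.66 and 10.5 CPM at 24 h at 17 °C, below 16.3, 18.1 and 11.4 CPM in darkness (−0.71, adjusted p = 0.00063, under 2-fold), and 37.8, 46.4 and 42.7 CPM at 27 °C (1.13, adjusted p = 6.47e-08). STO read 221, 222 and 242 CPM at 24 h in aBcde at 27 °C and 136, 131 and 90.8 CPM at 17 °C. PRR9 fell below darkness at 24 h in PHYB-CFP/abcde at 27 °C, to 4.1, 3.79 and 4.15 CPM (−1.39, adjusted p = 0.00057), and in PHYD-YFP/abCde at 27 °C, to 3.3, 2.5 and 4.09 CPM (−1.55, adjusted p = 0.000189).

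Several members that were not called at 1 h in aBcde at 27 °C rose there by 24 h. CYP707A3 (AT5G45340), an abscisic acid 8′-hydroxylase, read 7.96, 18.5 and 10.7 CPM in darkness, 21.7, 15.6 and 27.3 CPM at 1 h (0.80, adjusted p = 0.0617) and 61.6, 66.8 and 121 CPM at 24 h (2.74 ± 0.27, adjusted p = 1e-13) in aBcde at 27 °C. WRKY40, a WRKY factor that acts with WRKY18, read 13.5, 22.8 and 13.7 CPM, then 20.8, 17.7 and 24.8 CPM, then 66, 57.9 and 102 CPM (2.17 ± 0.30, adjusted p = 1.31e-08). WRKY53, a regulator of leaf senescence, read 2.33, 3.25 and 2.51 CPM in darkness, 2.1, 0.869 and 4.55 CPM at 1 h and 11.1, 12.7 and 14.2 CPM at 24 h (2.23 ± 0.54, adjusted p = 0.000679). In these 3 genes every library of 24 h lay above every dark library, whereas those of 1 h overlapped darkness.

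Over the comparisons at 24 h, WRKY53, CYP707A3, the aspartyl protease family gene AT3G59080 and the lectin-like AT1G78830 were called up in 5, and OPR1, BCB and WRKY40 in 4. At 17 °C in PHYD-YFP/abCde 26 members were above and 2 below darkness at 24 h, against 8.18% and 5.05% of all genes, with WRKY40 at 33.2, 18.7 and 31.9 CPM against 8.46, 5.52 and 5.9 CPM (2.08 ± 0.31, adjusted p = 1.28e-07). The 3 libraries of this group were even in the members, with median differences of 0.384, 0.240 and 0.330. MYBL2 was up in this group both at 1 h and at 24 h, where it read 152, 119 and 114 CPM (1.51, adjusted p = 1.32e-09).

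At 27 °C and 24 h 20 members were called above and 7 below darkness in PHYB-CFP/abcde (background 9.48% and 2.91%), 22 and none in the line with both transgenes (9.23% and 2.13%), 8 and 3 in PHYD-YFP/abCde (7.56% and 2.47%) and 6 and none in PHYD-YFP/abcde (3.02% and 0.208%). Single libraries carried part of these counts. The members' median difference at 24 h in PHYD-YFP/abcde at 27 °C was 0.583, −0.160 and −0.249, and OPR1 read 132, 16.1 and 21.1 CPM. None of the 6 calls held when each replicate was left out. In the line with both transgenes replicate 1 stood high (0.532 against 0.177 and 0.175), and 6 of 22 calls held, among them CDF3 and WRKY40. In PHYB-CFP/abcde replicate 2 stood high (0.558 against 0.144 and 0.195), and 5 of 27 calls held, among them CYP707A3, PRR9 and WRKY40.

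At 17 °C and 24 h 4 members were below darkness in PHYB-CFP/abcde (background 3.19% below and 5.6% above), 1 above and 6 below in the line with both transgenes (10.4% above and 4.77% below), and 1 below in PHYD-YFP/abcde (0.783% below and 2.91% above), which was PRR9. MBF1C and PRR9 were below darkness in 4 comparisons at 24 h. MBF1C fell at 27 °C to 50.9, 44.7 and 40.3 CPM in aBcde (−1.73 ± 0.26, adjusted p = 7.75e-08) and from 188, 168 and 199 CPM to 46.6, 45.3 and 42.2 CPM in PHYD-YFP/abCde (−2.05 ± 0.26, adjusted p = 3.89e-09). AT1G14200 fell with it, to 5.64, 6.77 and 4.68 CPM in aBcde (−2.03, adjusted p = 5.07e-07) and to 3.81, 2.74 and 5.26 CPM in PHYD-YFP/abCde (−2.57, adjusted p = 9.97e-09). Without phyC, in PHYD-YFP/abcde, MBF1C read 171, 117 and 128 CPM at 24 h and 27 °C against 176, 170 and 118 CPM in darkness (−0.15, adjusted p = 0.79). One 24 h library of aBcde at 27 °C read 588 CPM of PHYD and the others 14.2 and 31.9 CPM, and 13 of the 24 calls in that group held whichever replicate was left out.

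The W-box cores were also set beside the calls. In aBcde at 27 °C and 1 h 4 of 65 with a core and 11 of 85 without one were called up, with medians of 0.55 and 0.54. For PHYD-YFP/abCde at 17 °C the counts were 9 and 20 with medians of 0.83 and 0.81, and in the line with both transgenes at 27 °C 14 and 18 with medians of 0.65 and 0.72. At 24 h in aBcde at 27 °C 13 of 65 and 8 of 85 were called, with medians of 0.66 and 0.44. None of these differences was tested. AT2G24600, WRKY53 and CRK11, whose windows are printed above, have cores, as STO does.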

How the data were processed

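Poly(A) RNA of 90 seedling libraries was sequenced. The authors deposited raw read counts per gene without normalization, made on the TAIR10 genome, and the submitters' processing notes name FastQC, STAR, HTSeq and edgeR. The strand setting is not given in the sources used here. The fits left out 279 organelle genes and 627 genes of tRNA or rRNA. Groups came from the sample labels. edgeR 4.0.16 (R 4.3.3, quasi-likelihood test, TMM scaling, Benjamini-Hochberg adjustment over all genes) was fitted to all 90 libraries with 30 group means on 20695 genes with at least 5 counts in 23 libraries, and was checked on simulated data. Those data had the same spread for every gene and no library that stood apart, so the check does not cover such libraries. Calls required an adjusted p below 0.05 and a change of 2-fold or more. Counts over all genes at an unadjusted p under 0.05 were made for this fit only, not for the alternatives. Fold changes are log2 values from the edgeR fit at its default prior count. A prior count of 2 was used only for the log2 CPM of single libraries. The SE given after ± was worked back from each fold change and its F statistic and is not an output of the fit. Totals of 15010386 to 41124234 counts set the precision. DESeq2 1.42.0, other scalings and filters, other choices of the members, a replicate block and leaving out replicates were alternatives. Within a line and temperature, same-numbered dark and irradiated samples did not deviate together (r above 0.1 in 4 of 60 pairs), so they were not paired. Whether same-numbered samples of different lines share a batch was not tested. The members and gene lists were chosen with earlier results of these data known. Named genes are the 12 members with the largest ratio, in each comparison at 1 h the 3 members called up and 1 called down with the smallest p whose libraries do not overlap darkness, at 24 h 2 in each direction, for each difference of responses 2, the members on the gene lists, those beside the limit of the rule, and PIL1, PHYB, PHYC and PHYD. ZFP6, CRK11, AT1G76360, AT1G72430, BCB, the neighbouring pairs and the library markers RBCS1A, PORA, NRT2.1, PHT1;1 and CRU3 were chosen after their values were seen. Gene names came from RefSeq (TAIR10.1), which named 28009 genes.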

Additional observations from a re-analysis of the deposited data

Results flagged for a closer look

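A tested difference between responses was seen in 3 contrasts. In PHYB-CFP/abcde 1 member responded differently at 27 °C and 17 °C, PRR9, by 1.84 on the log2 scale. In PHYD-YFP/abCde 2 members did so, CDF3 by −1.18 and MYBL2 by −1.23, 27 °C minus 17 °C. With and without phyC beside PHYD-YFP, 6 members differed at 17 °C, with PRR9 at 4.01 and CDF3 at 1.65. The calls for CDF3 and MYBL2 between temperatures were lost without replicate 3 of 1 h R of PHYD-YFP/abCde at 17 °C. They were also lost without the replicate 2 libraries of all groups and kept without those of replicate 1. The calls for PRR9 and CDF3 between the lines held without that replicate 3 library. The PRR9 call between temperatures was lost whichever replicate was left out.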

How the results depend on the processing

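Of 256 recomputed counts of called members, 210 stayed within 1.5 times the count given, 43 moved further and 3 changed the direction that most calls took. Choosing the members on TMM-scaled CPM gave at 1 h and 27 °C 1 call in PHYD-YFP/abCde, 2 for PHYD-YFP/abcde, and 0.25 CPM in place of 1 in the rule gave 0 for the PHYB-CFP/abcde difference between temperatures. DESeq2 gave 2 in PHYD-YFP/abcde at 17 °C and 24 h, 8 for PHYD-YFP/abCde between temperatures, 13 for PHYD-YFP/abCde minus PHYD-YFP/abcde and 1 for PHYD-YFP/abCde minus aBcde at 27 °C. With the 54 libraries of 3 lines the PHYD-YFP/abCde difference between temperatures had 1 call and that between PHYD-YFP/abCde and PHYD-YFP/abcde had 3. Fits to the groups compared alone gave 10 calls at 1 h in the line with both transgenes at 17 °C, 0 at 17 °C and 1 at 27 °C in PHYD-YFP/abCde, 0 at 24 h for PHYD-YFP/abcde at either temperature, 2 for the PHYB-CFP/abcde difference between temperatures and 0 for both PHYD-YFP/abCde differences. Without replicate 3 of 1 h R of PHYD-YFP/abCde at 17 °C, chosen after seeing the data, the 3 results that use it had 3 calls at 1 h, 0 between temperatures and 2 between lines. The fits to fewer libraries estimate the spread from fewer samples. Why the counts moved was not tested.

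With a replicate block PHYD-YFP/abcde at 27 °C and 24 h had 2 calls instead of 6 and the PHYD-YFP/abCde difference between temperatures 1 instead of 2, and the other counts stayed within 1.5 times. Leaving out each replicate number in turn gave 4 to 53 calls at 1 h in PHYD-YFP/abCde at 17 °C and 1 to 1 for PHYD-YFP/abcde at 27 °C (1, a fall, without replicate 3). At 24 h it gave 1 to 4 in PHYB-CFP/abcde at 17 °C, 10 to 26 at 27 °C, 4 to 7 in the line with both transgenes at 17 °C (5, mostly rises, without replicate 3), 10 to 16 at 27 °C, 9 to 19 in PHYD-YFP/abCde at 27 °C, and 0 to 2 for PHYD-YFP/abcde at 17 °C (2, both rises, without replicate 3) and 0 to 12 at 27 °C. The differences of responses gave 0 to 0 for PHYB-CFP/abcde between temperatures, 0 to 15 for PHYD-YFP/abCde between temperatures, 2 to 13 for PHYD-YFP/abCde minus PHYD-YFP/abcde and 0 to 1 for PHYD-YFP/abCde minus aBcde. For members near 0 CPM, depth limits what could be detected.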

Other observations

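Chromosome 1 held 53 of 150 (35.3%, against 26.4% of genes tested) and chromosome 2 held 17 (11.3% against 15.2%), a difference that was not tested, and 7 pairs of members lay within 20 kb of each other. Among the closest were the transporter genes PUP7 and AT4G18205, 154 bases apart, and OPT2 and AT1G09932, 193 bases apart. Genes of such pairs can share reads where they are near-identical copies.

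GSTU12 had a high value in a single library of PHYD-YFP/abcde at 27 °C and 24 h, where it read 31.1, 0.756 and 1.49 CPM. FTM1, a stearoyl-ACP desaturase family gene, read 17.5 to 18.7 CPM in darkness and 6.05, 2.97 and 3.11 CPM at 24 h in the line with both transgenes at 17 °C (−2.15, adjusted p = 0.000215 by edgeR's quasi-likelihood test), and 0.366, 0.184 and 1 CPM in darkness in aBcde at 17 °C. The reasons were not tested.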
